A study of Mus musculus with 6 samples.

Results

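Fibrinogen, a group of clotting factors and the von Willebrand axis were measured as lung transcripts in endotoxaemic mice. The 10 genes were taken by name: the fibrinogen chains Fga, Fgb and Fgg, the clotting factors F5, F7, F8 and F10, the carrier protein gene Vwf, its cleaving protease Adamts13, and Cpb2, which encodes an inhibitor of fibrinolysis. A probe was found for all 10 by the RefSeq transcript given for it. Of these genes 6 were well above background on all 6 arrays and were tested among 32450 genes and unnamed probes, 3 stayed below that mark throughout, and Adamts13 reached it on 1 array. The samples were whole lungs of 6 male C57BL6 mice, 10 weeks old, each starved for 16 h and then given lipopolysaccharide (LPS), the endotoxin of Gram-negative bacteria, into the peritoneum at 20 mg/kg. At 3 h and 24 h after LPS, 3 mice received saline and 3 received recombinant antithrombin at 750 IU/kg, and lung RNA was taken at 30 h. All 6 mice carried endotoxin, and no mouse without LPS was analysed here. The title of the study names endotoxaemia with acute respiratory distress syndrome as its setting and antithrombin as the treatment examined.

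Clotting runs from tissue factor with factor VIIa to factor Xa, which with its cofactor factor Va turns prothrombin into thrombin, and thrombin turns fibrinogen into fibrin. Antithrombin inhibits thrombin, factor Xa and other proteases of this cascade. Most plasma clotting factors and fibrinogen are made by hepatocytes, while von Willebrand factor is made by endothelium and megakaryocytes, so lung RNA shows local transcripts and not the plasma proteins. Levels here are log2 signals relative to the 75th percentile of each array, so 0 marks that percentile and 1 unit is a doubling. Signals of different probes are not comparable as transcript amounts, and only mice are compared within a gene. Brightest, below, names the gene with the highest probe signal and does not rank genes by amount.

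Between 69.9% and 72.1% of probes were well above background on each array, no spot was saturated, and the number of arrays limits the precision. The lung genes Sftpc, Sftpb, Ager, Hopx, Scgb1a1 and Foxj1 were well above background on all 6 arrays. Leaving out saline mouse 2 raised the number of all genes past the adjusted threshold from 2 to 3421. Adjusted p values without that mouse are marked as such below. With all 6 mice, no member and no gene of the lists read here had an adjusted p under 0.05. In whole lung, fewer cells of a type and less RNA per cell cannot be told apart. The titles number the mice within each group, and n is the number of mice.

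No member of the group passed the test between antithrombin and saline. Of the 6 tested genes 0 had an adjusted p under 0.05 in limma, against 0.00616% of all genes tested (2 genes). At an unadjusted p under 0.05 the members' count was again 0, where 21.6% of all genes passed, and the saline and antithrombin mice overlapped for every tested member, where 28.8% of all genes did not overlap. The differences were positive for F5, F7 and F10 and negative for Fgg, Vwf and Cpb2, so 3 of 6 were positive against 43% of all genes. Over 18 alternatives of processing and of mice left out, the sign turned in 7 for Cpb2 and in 2 for Fgg. Without saline mouse 3 or antithrombin mouse 3, 5 of 6 were positive. With all mice the median of the 6 differences was 0.10 on the log2 scale, against -0.05 over all genes tested.

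**Figure D1:**
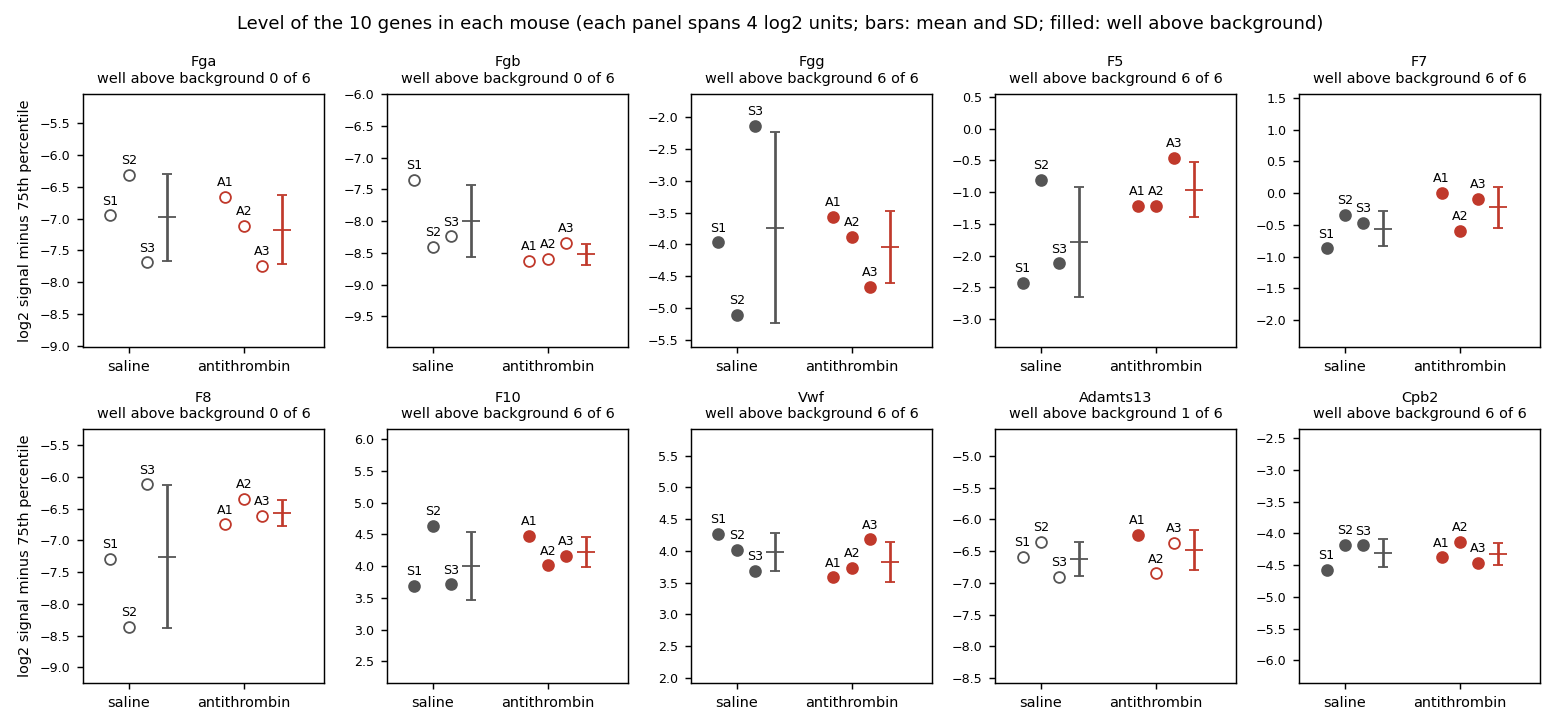
Level of each of the 10 genes in each mouse (S saline, A antithrombin), as log2 signal minus the 75th percentile of the array, with mean and SD (n = 3) beside the points; each panel spans 4 log2 units, and open points were not well above background. The saline and antithrombin points overlap in every filled panel, and among those Fgg and F5 have the widest spread of saline mice.

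Fibrinogen is a hexamer of paired alpha, beta and gamma chains, and its 3 genes lie together on chromosome 3. Of the 3 only Fgg, the gamma chain gene, was well above background. The windows before the start of these genes are shown for their matches to the core letters of the element through which interleukin-6 raises fibrinogen in liver. They are the 250 bases before each gene's start in RefSeq, build GRCm38.p6, 5′ to 3′ on the gene's strand (Fga chr3:83025903-83026152, plus; Fgb chr3:83049864-83050113, minus; Fgg chr3:83007474-83007723, plus). Capitals mark matches to CTGGGA, the core of that interleukin-6 element, and to TTNNGCAA, a pattern of C/EBP factors.
Fga: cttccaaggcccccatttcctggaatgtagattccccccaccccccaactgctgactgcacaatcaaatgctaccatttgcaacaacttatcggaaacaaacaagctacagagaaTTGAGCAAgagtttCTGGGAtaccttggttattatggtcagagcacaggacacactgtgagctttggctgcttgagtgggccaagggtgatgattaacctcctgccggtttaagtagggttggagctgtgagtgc
Fgb: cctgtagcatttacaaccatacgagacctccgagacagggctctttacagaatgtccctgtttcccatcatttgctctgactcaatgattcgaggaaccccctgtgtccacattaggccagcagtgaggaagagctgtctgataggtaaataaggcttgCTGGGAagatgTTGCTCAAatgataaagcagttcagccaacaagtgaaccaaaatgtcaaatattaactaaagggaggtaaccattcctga
Fgg: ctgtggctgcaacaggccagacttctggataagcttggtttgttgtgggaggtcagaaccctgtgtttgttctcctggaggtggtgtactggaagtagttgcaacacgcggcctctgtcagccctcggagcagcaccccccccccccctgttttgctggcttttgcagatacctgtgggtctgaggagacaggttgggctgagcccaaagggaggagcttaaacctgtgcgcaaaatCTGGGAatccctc

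CTGGGA stood 121 to 116 bases before the start of Fga, 91 to 86 before that of Fgb and 13 to 8 before that of Fgg. TTNNGCAA was matched in Fga at 135 to 128 bases and in Fgb, on the other strand, at 80 to 73 bases, and not in the Fgg window. The same 2 windows held GTTAAT, part of the site of the liver factor HNF1, on the other strand, at 43 to 38 bases in Fga and 29 to 24 in Fgb. Among members outside fibrinogen, F10 held CTGGGA at 126 to 121 bases, and Adamts13 held it at 58 to 53 and, on the other strand, at 121 to 116. Of the 10 members 9 had a window in the table. Both strands were searched, and of 32851 windows of this length 27.0% held CTGGGA, 6.43% held GTTAAT and 9.56% held TTNNGCAA. The core of ETS factor sites, GGAAG, was in 64.1% of windows and overlapped the CTGGGA of Fgb. These matches describe letters and were not tested as sites.

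Fga, the alpha chain gene, read -6.95, -6.31 and -7.69 in saline mice 1, 2 and 3 and -6.66, -7.12 and -7.75 in antithrombin mice 1, 2 and 3. Fgb, the beta chain gene, read -7.35, -8.40 and -8.24 after saline and -8.63, -8.60 and -8.34 after antithrombin. None of these values was well above background, so they carry no order and no fold is given.

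Fgg read -3.97, -5.11 and -2.14 in saline mice 1, 2 and 3 and -3.57, -3.88 and -4.67 in antithrombin mice 1, 2 and 3. Saline mouse 3 was the highest of the 6, saline mouse 2 the lowest, and the antithrombin mice lay between them. The means were -3.74 ± 1.50 (SD, n = 3) after saline and -4.04 ± 0.57 (SD, n = 3) after antithrombin. The log2 difference was -0.30 (SE 0.72, 95% interval -2.02 to 1.41, adjusted p = 0.819 in limma), so a fold between 0.247 and 2.65 is within the interval. With the processed signal Fgg was marked by its spread: the saline mice ranged over 7.84-fold, with an SD above that of 99.7% of genes tested. With normexp background correction the spread was narrower, and Fgg read -3.1037, -3.2245 and -1.7965 in saline mice 1, 2 and 3. Saline mouse 3 stayed the highest in that setting, but antithrombin mouse 3, at -3.2568, was the lowest of the 6. The scanner's own error of the Fgg signal was 10.1% to 14.3% on the 6 arrays. With the processed signal the difference was -0.99 without saline mouse 2, 0.50 without saline mouse 3 and 0.01 without antithrombin mouse 3.

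Other genes of liver type were read beside Fgg. Of 15 hepatocyte markers 9 were well above background on all 6 arrays and 4 on none, these being the apolipoprotein genes Apoa1 and Apoh, the thyroxine carrier Ttr and the urea cycle enzyme Cps1. The summed signal of a list, here and below, is the log2 of its linear signals added up, so its brightest genes carry it. For the hepatocyte list it lay between 2.64 and 2.86 after saline and between 2.25 and 2.90 after antithrombin. Of its 10 tested members 4 were positive (all genes 43%), and the median was -0.25 (-0.34 to -0.02 with a mouse left out). An unadjusted p under 0.05 was reached by 2, both lower (all genes 8.73% higher and 12.9% lower). The 2 were Tat, tyrosine aminotransferase, at -1.03 (SE 0.34), and Apoc3, an apolipoprotein of triglyceride-rich particles, at -0.26 (SE 0.11). Apoa2, the brightest of the list, differed by -0.33 (SE 0.18). Albumin, Alb, read -4.80, -6.20 and -4.50 after saline and -6.26, -5.78 and -5.33 after antithrombin, well above background on all 6 arrays. The part of hepatocyte-type transcripts in the Fgg level was not tested.

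Acute phase and interleukin-6 response genes had 16 of 17 members tested, with 6 positive (all genes 43%). Their median was -0.09, which ran from -0.19 to 0.06 with a mouse left out. An unadjusted p under 0.05 was reached by 2, 1 in each direction, where 21.6% of all genes reached it. The member higher was Saa4, a constitutive serum amyloid A, which was clear of background on all 3 antithrombin arrays but on 1 of 3 in the saline group. Its fitted difference of 2.15 rests on saline signals near background and was 0.51 with normexp background correction. From the fitted values, its adjusted p in limma was 0.106 with all 6 mice and 0.0168 without saline mouse 2. The member lower was Il6ra, the interleukin-6 receptor, at -0.39. Saa3, the brightest of the list and the serum amyloid A made locally in inflamed tissue, differed by -0.05 (SE 0.15). The summed signal of the list ranged from 10.39 to 10.77 after saline and from 10.42 to 10.56 after antithrombin. Saline mouse 3, the highest for Fgg, was the highest for 10 of these 16 genes, where 26.9% of all genes had their highest value in it.

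Itih4, an inter-alpha-trypsin inhibitor heavy chain of the acute phase, and Hpx, hemopexin, the plasma heme carrier, were picked after their values were seen because their mice followed Fgg. Itih4 read 4.54, 3.33 and 5.12 after saline and 4.41, 4.04 and 2.79 after antithrombin. Hpx read -0.44, -1.06 and 0.33 after saline and 0.10, -0.06 and -0.99 after antithrombin. As in Fgg, saline mouse 3 was the highest for both, and saline mouse 2 and antithrombin mouse 3 were the lowest 2. Of the 10 tested hepatocyte markers, which include Hpx, 5 were highest in saline mouse 3 (all genes 26.9%). Ambp of the same list went the other way, lowest in saline mouse 3 (-2.35) and highest in antithrombin mouse 3 (-0.22). By Pearson r over the 6 arrays, among 16590 genes on the same arrays, the patterns most like that of Fgg were those of Tjp3 (0.991), Snhg18 (0.988) and Mymk (0.986), and 128 genes reached 0.9. With 6 arrays such values are common, and they are given as a description.

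**Figure D2:**
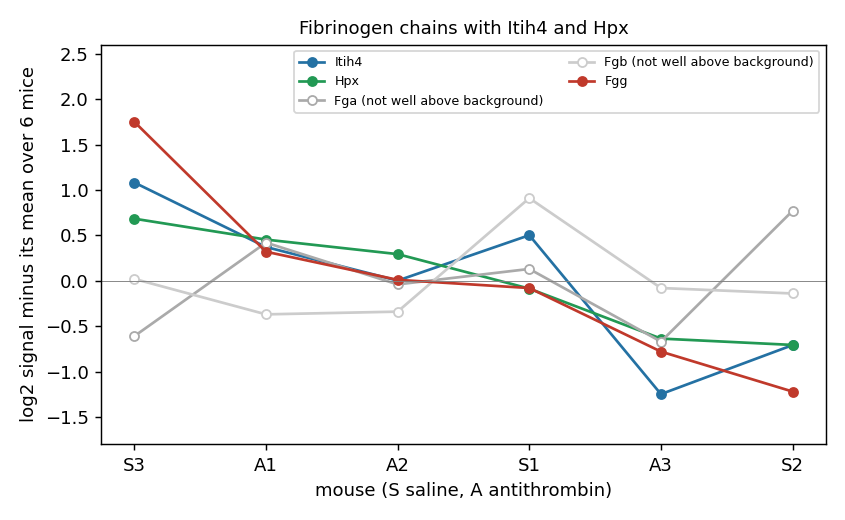
Log2 signal of the 3 fibrinogen chains, Itih4 and Hpx in each mouse, each gene relative to its own mean over the 6 mice, with mice (S saline, A antithrombin) ordered by Fgg. Fgg, Itih4 and Hpx are highest in saline mouse 3 and lowest in antithrombin mouse 3 and saline mouse 2, while the open points of Fga and Fgb were not well above background.

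The enzymes of the extrinsic and common pathway, F7 and F10, lie next to each other on chromosome 8. F7, the protease that binds tissue factor, read -0.87, -0.34 and -0.47 in saline mice 1, 2 and 3 and 0.01, -0.59 and -0.09 in antithrombin mice 1, 2 and 3. Antithrombin mice 1 and 3 were above all saline mice, and antithrombin mouse 2 fell among them. The means were -0.56 ± 0.27 and -0.22 ± 0.32 (SD, n = 3 each), a difference of 0.34 (SE 0.21, 95% interval -0.16 to 0.83, adjusted p = 0.370 in limma), or 1.26-fold.

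F10, whose active form cuts prothrombin and is a direct target of antithrombin, read 3.69, 4.63 and 3.71 after saline and 4.48, 4.01 and 4.16 after antithrombin. Saline mouse 2 was the highest of the 6, the other saline mice the lowest. The means were 4.01 ± 0.54 and 4.22 ± 0.24 (SD, n = 3 each), with a difference of 0.21 (SE 0.28, 95% interval -0.45 to 0.87, adjusted p = 0.668 in limma). It was 0.52 without saline mouse 2 (adjusted p = 0.0949), but 0.052 without saline mouse 1, 0.061 without saline mouse 3 and 0.081 without antithrombin mouse 1.

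Macrophages and monocytes are known sources of F7 and F10 outside the liver. Of 12 alveolar macrophage markers 8 were positive (all genes 43%), 0 passed an unadjusted p of 0.05 (all genes 21.6%) and the median was 0.09. Their summed signal was 8.42 to 8.70 after saline and 8.37 to 8.60 after antithrombin. Of 12 monocyte and tissue macrophage markers 10 were positive (all genes 43%), with a median of 0.18, and 3 were higher at an unadjusted p under 0.05 (all genes 8.73%). That count was 1 without saline mouse 3, antithrombin mouse 1 or antithrombin mouse 3. Among the 3 were the fractalkine receptor Cx3cr1, higher by 1.60 (SE 0.37), and the matrix proteoglycan Vcan, by 0.70 (SE 0.23), while Ly6c2, the brightest, differed by -0.18. With all 6 mice the adjusted p in limma was 0.155 for Cx3cr1 and 0.181 for Vcan. Without saline mouse 2 it was 0.0288 for Cx3cr1 and 0.0365 for Vcan. The summed signal of that list was 9.07 to 9.14 after saline and 9.0 to 9.26 after antithrombin. The part of these cells in the values of F7 and F10 was not tested.

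F5 and F8 encode the related cofactors factor V and factor VIII. F8 read -7.29, -8.37 and -6.12 after saline and -6.75, -6.35 and -6.62 after antithrombin, none well above background, and was not tested.

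F5 had the largest difference of the 6 tested members, and it was larger in size than that of 95.1% of all genes tested. It read -2.43, -0.80 and -2.12 in saline mice 1, 2 and 3 and -1.21, -1.22 and -0.46 in antithrombin mice 1, 2 and 3. Saline mice 1 and 3 were below every antithrombin mouse, and saline mouse 2 lay above antithrombin mice 1 and 2, so the groups overlapped. The means were -1.78 ± 0.87 after saline and -0.96 ± 0.44 after antithrombin (SD, n = 3 each). The difference was 0.82 (SE 0.44, 95% interval -0.23 to 1.87, adjusted p = 0.313 in limma), or 1.76-fold with an interval of 0.852 to 3.65. Over the 6 mice F5 ranged 3.91-fold, with a scanner error of 10.0% to 10.1% per spot.

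Leaving out saline mouse 2 made F5 the 1 member that passed the test, with a difference of 1.31 (SE 0.27, adjusted p = 0.0423). The difference was 0.50 without saline mouse 1 and 0.57 without antithrombin mouse 3, and did not pass in either setting. Without saline mouse 2, 10.5% of all genes passed, against 0.00616% with all mice. Also without saline mouse 2, the unadjusted p was under 0.05 for 2 of the 6 members, F5 and F10, and for 31.8% of all genes. Over 18 alternatives of processing and of mice left out, F5 stayed positive in 18, with adjusted p between 0.0423 and 0.578.

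**Figure D3:**
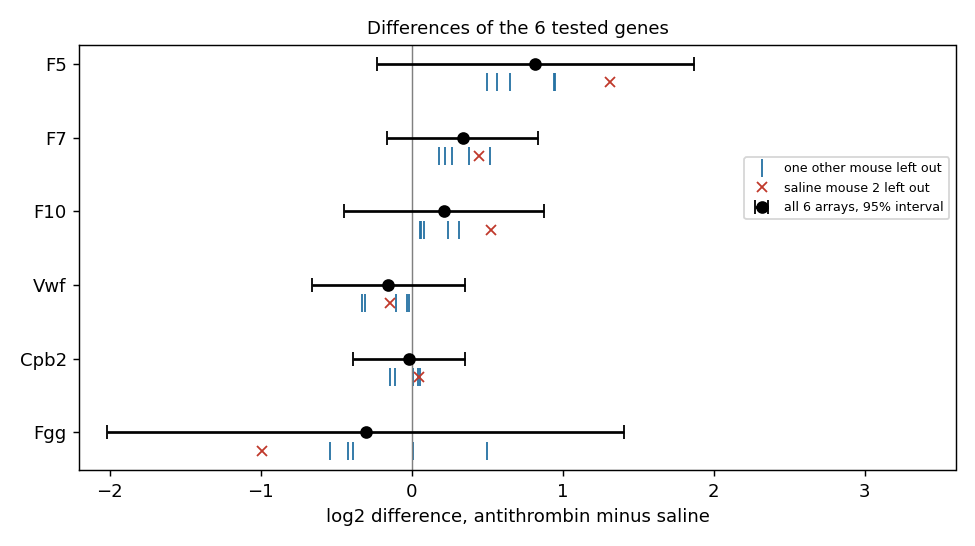
Log2 difference, antithrombin minus saline, of the 6 tested genes with the 95% interval (black), and the same difference with 1 mouse left out (marks below each bar, saline mouse 2 as a cross). All 6 intervals hold 0, and leaving out saline mouse 2 moved F5 from 0.82 to 1.31 and Fgg from -0.30 to -0.99.

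Platelets and their parent megakaryocytes carry factor V in their alpha granules, and the lung holds megakaryocytes. All 14 markers of these cells were tested, and 12 were positive (all genes 43%). An unadjusted p under 0.05 was reached by 0 (all genes 21.6%), and the median was 0.76. The smallest p values belonged to the von Willebrand receptor chain Gp1ba, at 1.76 (SE 0.82), and the fibrinogen receptor chain Itga2b, at 1.24 (SE 0.60), while the chemokine gene Pf4, the brightest, differed by 0.21 (SE 0.15). With normexp background correction Gp1ba differed by 0.95 and Itga2b by 0.40, and with a mouse left out they ranged from 1.23 to 2.74 and from 0.59 to 1.89. The mean shift of the 14 markers from the saline mean was -0.42, 0.88 and -0.46 in saline mice 1, 2 and 3 and 0.50, 0.43 and 1.11 in antithrombin mice 1, 2 and 3. F5 thus had the same mice low and high: saline mice 1 and 3 were lowest, and antithrombin mouse 3, then saline mouse 2, were highest. Saline mice 1 and 3 were the lowest 2 for 10 of the 14 markers, where they were so for 17.9% of all genes. They were also the lowest 2 for 8 of 10 neutrophil markers and 7 of 12 monocyte and tissue macrophage markers, so platelet markers did not stand alone in this. Antithrombin mouse 3 was the highest for 11 of the 14 platelet markers, 4 of the neutrophil markers and 2 of the monocyte and tissue macrophage markers. It was so for 6641 of 32426 genes. The summed signal of the platelet markers ran from 5.72 to 6.14 after saline and from 5.94 to 6.07 after antithrombin. Without saline mouse 2 the median was 1.27 and 4 of the 14, Gp1ba and Itga2b among them, passed the adjusted test, where 10.5% of all genes passed. The median was 0.45 without antithrombin mouse 3, 0.47 without saline mouse 3 and 0.51 with saline mouse 1 left out. The part of platelets, megakaryocytes, neutrophils and monocytes in the F5 level was not tested.

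**Figure D4:**
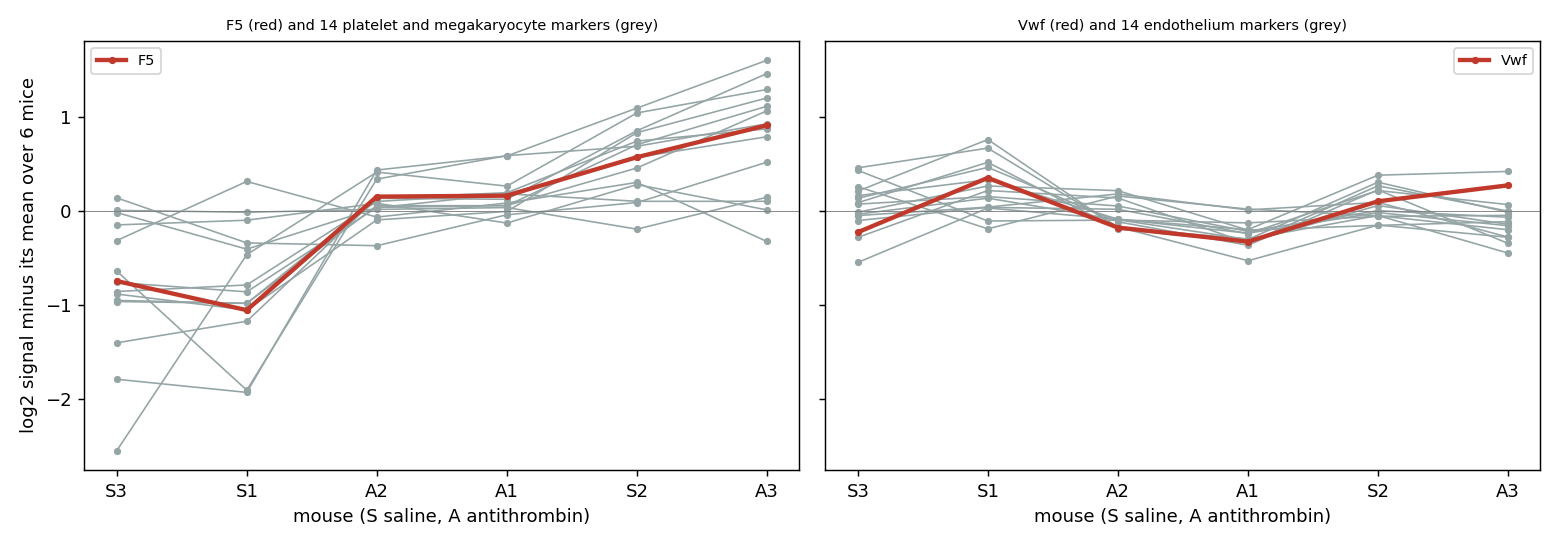
Log2 signal relative to each gene's mean over the 6 mice, for F5 with 14 platelet and megakaryocyte markers (left) and Vwf with 14 endothelium markers (right), with mice (S saline, A antithrombin) in the same order in both panels. F5 and most of its markers are lowest in saline mice 1 and 3, and Vwf moves within 1 log2 unit.

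Von Willebrand factor is the multimeric protein that tethers platelets to damaged vessel walls and carries factor VIII in plasma, and ADAMTS13 cuts its longest multimers. Vwf, on chromosome 6, read 4.26, 4.01 and 3.68 in saline mice 1, 2 and 3 and 3.58, 3.73 and 4.18 in antithrombin mice 1, 2 and 3. Saline mouse 1 was the highest and antithrombin mouse 1 the lowest, and antithrombin mouse 3 lay above saline mouse 2. The means were 3.98 ± 0.29 and 3.83 ± 0.31 (SD, n = 3 each). The difference was -0.15 (SE 0.21, 95% interval -0.66 to 0.35, adjusted p = 0.682 in limma), a fold of 0.898 with an interval of 0.633 to 1.27. It kept its sign in 18 of 18 alternatives, but its size moved, from -0.33 without antithrombin mouse 3 to -0.015 without saline mouse 1.

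Endothelial genes stood beside Vwf as follows. Of 14 endothelium markers 1 was positive (all genes 43%) and the median was -0.17. At an unadjusted p of 0.05, 5 passed, all with lower values after antithrombin (all genes 12.9%). That count was 1 without antithrombin mouse 1, 2 without antithrombin mouse 3 or saline mouse 1, and 3 without antithrombin mouse 2. The endothelial transcription factor Erg differed by -0.55 (SE 0.14) and the guidance receptor Robo4 by -0.45 (SE 0.15), while Egfl7, the brightest, differed by -0.10 (SE 0.14). The summed signal was 8.61 to 8.78 after saline and 8.32 to 8.55 after antithrombin. Of 10 markers of large vessel and venous endothelium, where Vwf is richest, 4 were positive (all genes 43%). At an unadjusted p under 0.05 there was 1 higher (all genes 8.73%) and 3 lower (all genes 12.9%). These included the adhesion receptor E-selectin, Sele, at 1.30, and the noradrenaline transporter Slc6a2, at -0.91, while Vcam1, the brightest, differed by 0.02. With all 6 mice the adjusted p in limma was 0.151 for Sele and 0.155 for Slc6a2. Without saline mouse 2 Sele (adjusted p = 0.0243) and Slc6a2 (adjusted p = 0.0422) passed the adjusted test. Selp, which encodes the P-selectin stored with von Willebrand factor and was picked after its value was seen, differed by 0.24 (SE 0.13). The part of endothelial cell content in the Vwf level was not tested.

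By Pearson r over the 6 arrays, the patterns most like that of Vwf among 16590 genes were those of Snn (0.987), Klrb1c (0.985) and Csn1s2b (0.982), and 87 genes reached 0.9.

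Adamts13, on chromosome 2, read -6.59, -6.36 and -6.90 after saline and -6.25, -6.85 and -6.37 after antithrombin. It was well above background in antithrombin mouse 1 alone, and its other probe on none of the 6 arrays, so it was not tested and no fold is given. Its known source, the hepatic stellate cell, shares markers with pericytes, and of 10 such markers 6 were positive (all genes 43%), with a median of 0.20. At an unadjusted p under 0.05, 3 were higher (all genes 8.73%), and 1 was so without saline mouse 1, saline mouse 3 or antithrombin mouse 2. The retinol esterifying enzyme Lrat differed by 1.03 and the pericyte proteoglycan Cspg4 by 0.62, and Notch3 was the brightest. Cspg4 did not pass the adjusted test with all 6 mice, and its adjusted p in limma was 0.0322 without saline mouse 2. The 4 negative markers were Rgs5, Kcnj8, Pdgfrb and Abcc9, with a lowest difference of -0.65. Of these 0 had an unadjusted p under 0.05 (all genes 12.9% lower).

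Cpb2 encodes thrombin-activatable fibrinolysis inhibitor, a carboxypeptidase that trims the plasmin binding sites from fibrin. It read -4.57, -4.18 and -4.19 after saline and -4.38, -4.14 and -4.47 after antithrombin. The antithrombin mice fell within the saline range but for mouse 2, which was the highest by a small margin. The means were -4.31 ± 0.22 and -4.33 ± 0.17 (SD, n = 3 each), with a difference of -0.02 (SE 0.16, 95% interval -0.39 to 0.35, adjusted p = 0.957 in limma). The scanner error of its signal was 11% to 12%, and its sign turned in 7 of 18 alternatives.

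The members act with 41 other coagulation and fibrinolysis genes listed here, of which 34 were tested. Of these 21 were positive (all genes 43%), 0 passed the adjusted test (all genes 0.00616%), and the median was 0.09. An unadjusted p under 0.05 was reached by 5 in the direction of antithrombin (all genes 8.73%) and by 3 in that of saline (all genes 12.9%). Not well above background on any array were the factor genes F9 and F13b and the serpins Serpina5 and Serpina10, as for Fga, Fgb and F8 among the members. Higher by the unadjusted test were Serpinb2, a plasminogen activator inhibitor, by 2.44 (SE 0.68), F13a1, whose enzyme crosslinks fibrin, by 0.78 (SE 0.24), the platelet and matrix glycoprotein Thbs1 by 0.55 (SE 0.21), and Vkorc1 by 0.56 (SE 0.15). Lower were the thrombin receptor F2r, by -0.51 (SE 0.16), the histidine-rich glycoprotein Hrg, by -0.39, and the receptor F2rl1, by -0.40. With normexp background correction Serpinb2 was at 1.66, Hrg at -0.15 (unadjusted p = 0.109 in limma, a fit across all genes) and F2rl1 at -0.26.

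Vkorc1, the reductase that recycles vitamin K, serves the carboxylation that F7 and F10 need. It read 3.17, 3.32 and 2.86 after saline and 3.63, 3.56 and 3.83 after antithrombin. All antithrombin mice were above all saline mice, with an adjusted p of 0.158 in limma over all genes (0.0493 without saline mouse 2). Ggcx, the carboxylase itself, differed by 0.40 (SE 0.18), and the cargo receptor genes of factors V and VIII, Lman1 and Mcfd2, by 0.12 and -0.04. These last 3 were picked after their values were seen.

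F13a1 read 3.77, 4.51 and 3.66 after saline and 4.90, 4.55 and 4.83 after antithrombin. The groups were apart, saline mouse 2 lying just below antithrombin mouse 2, and the adjusted p was 0.170 in limma (0.0275 without saline mouse 2). The adjusted p of F2r in limma was 0.173 with all 6 mice and 0.0397 without that mouse. Without saline mouse 2 the whole list had 15 genes with an unadjusted p under 0.05, 8 of them higher, where 31.8% of all genes reached it. The adjusted test was passed by 3 higher and 2 lower genes of the list, where 10.5% of all genes passed.

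**Figure D5:**
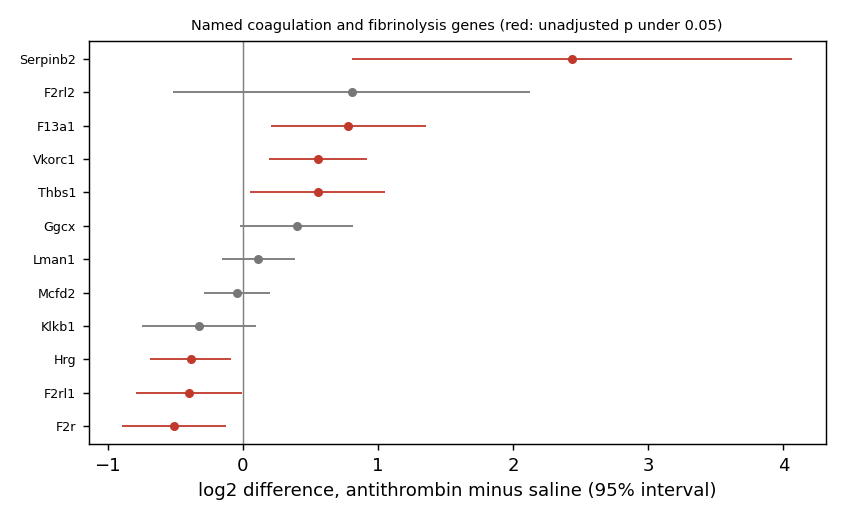
Log2 difference, antithrombin minus saline, with the 95% interval for those coagulation and fibrinolysis genes, other than the members, that are named with their values, ordered by size; red marks an unadjusted p under 0.05. Among the genes drawn Serpinb2 has the highest difference, 2.44, and F2r the lowest, -0.51.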

How the data were processed

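The 6 lung RNA samples were run on single-channel Agilent arrays of 1 slide, 1 per mouse. Groups and mouse numbers came from the titles. Per the file headers the deposited spot intensity is a background-subtracted processed signal from Feature Extraction 10.7.3.1, while the submitters' processing notes name version 9.1. A deposited table of log2 values was also used. It was compared with the log2 processed signal minus the 75th percentile of each array. After a constant for each probe and a shift for each array were removed, 100% of probes matched within 0.01. The array shifts ran only from -0.0029 to 0.0026. How the constant of each probe was chosen is unknown. The direction of the deposited values was that of the signal, and their column medians ran from -0.0369 to 0.0763.

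From the intensity, the log2 signal minus the 75th percentile of each array over non-control probes was computed, without control and outlier spots. Probes were named by accession through RefSeq (assembly GRCm38.p6), which named 32994 of 56605, and each gene took its brightest probe. The array design names another build, so coordinates are given only for the RefSeq windows. Genes well above background on 3 or more arrays were fitted in R 4.3.3 by limma 3.58.1 (lmFit, eBayes), tested on both sides and adjusted by Benjamini-Hochberg over all 32450, threshold 0.05. A list score is the mean, over tested genes, of the distance from the saline mean in log2 units.

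Members and lists were chosen with earlier results of these data known. Besides the members, named genes were the coagulation genes with the 4 smallest p in each direction, the 2 smallest p and the brightest gene of each marker list, and the nearest patterns of Vwf and Fgg. Klkb1, the last of the lower coagulation genes, differed by -0.32. A result for 1 listed gene is not reported here. Alternatives were other background corrections, scalings, filters, probe rules and variances, blocks and each mouse left out. The fit was tested on simulated data for the antithrombin comparison over 32450 genes: of 100 genes changed 2-fold 42 were recovered, of 100 changed 4-fold 89, with 5 unchanged genes called.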

Additional observations from a re-analysis of the deposited data

How the results depend on the processing

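All genes past the adjusted threshold numbered 2, and 1 with normexp (chosen after seeing the data, on the median spot signal), quantile normalisation, median scaling, no filter, the filter on all 6 arrays, every probe singly, a trended and robust variance, or the array row as a block. With array weights 2568 passed. With each mouse left out in turn the count ran from 0 to 3421, the highest without saline mouse 2. Mouse numbers do not pair the samples, whose correlations by number were -0.01, -0.16 and -0.28, and with the number as a replicate block 0 genes passed.

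The members past the threshold stayed at 0 in every setting but the one without saline mouse 2, a range of 0 to 1 over mice left out. The count of other coagulation genes at an unadjusted p under 0.05 was 8, and 4 to 15 with a mouse left out. F5, F7, F10 and Vwf kept their sign in all 18 alternatives. Fgg turned with a mouse left out, over a range of -0.99 to 0.50. Cpb2, at -0.02, turned to 0.020 with quantile normalisation, 0.0013 with median scaling and 0.14 with array weights, and ranged from -0.15 to 0.053 with a mouse left out. With 3 mice a group, the intervals of F5 and Fgg leave differences of more than 2-fold undetermined, and signals of Fga, Fgb and F8 were too near background to compare.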

Other observations

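Other groups of genes were read for the cells around the members. Of 10 tested neutrophil markers 9 were positive (all genes 43%), with a median of 0.59, and 5 were higher at an unadjusted p under 0.05 (all genes 8.73%). That count was 2 without antithrombin mouse 1. Without saline mouse 2 it was 7 (all genes 31.8% in either direction), of which 3 passed the adjusted test (all genes 10.5% in either direction). The chromatin deiminase Padi4 differed by 0.95 (SE 0.21) and the granule peptide gene Camp by 1.21 (SE 0.32), while S100a9, the brightest, differed by 0.14 (SE 0.13). Of 7 lymphatic markers 2 were positive (all genes 43%), with a median of -0.22. At an unadjusted p under 0.05 there was 1 higher (all genes 8.73%), the chemokine gene Ccl21a at 0.90. The 1 lower (all genes 12.9%) was the hyaluronan receptor Lyve1 at -0.95. With all 6 mice the adjusted p in limma was 0.152 for Padi4, 0.156 for Camp, 0.151 for Ccl21a and 0.179 for Lyve1. Without saline mouse 2 it was 0.0311 for Padi4, 0.0264 for Camp, 0.0365 for Ccl21a and 0.0255 for Lyve1. Of 10 alveolar type 2 markers 5 were positive (all genes 43%) and 1 was higher at an unadjusted p under 0.05 (all genes 8.73%), with a median of -0.01.

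A coagulation gene and a plasma protein gene of the hepatocyte list, picked after their values were seen, had the same mice low and high as F5. The thrombin receptor F2rl2 read -2.61, -1.56 and -3.69 after saline and -2.28, -2.05 and -1.12 after antithrombin. Ambp, the precursor of bikunin, read -2.10, -0.72 and -2.35 after saline and -0.97, -1.19 and -0.22 after antithrombin, with an adjusted p of 0.284 in limma, or 0.0440 without saline mouse 2. In both genes saline mice 1 and 3 were the lowest and antithrombin mouse 3 the highest.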
